A study of Homo sapiens with 12 samples.

Results

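HEK293T cells expressing the gain-of-function mutant EZH2 Y641F were compared with HEK293T cells expressing EZH2 WT, by RNA-Seq of 3 replicates per line. These 6 libraries were taken by their labels from 12, and the other 6 came from a second gain-of-function (GOF) line, EZH2 A677G, and from a loss-of-function (LOF) line, EZH2 H689A/F667I. HEK293T is a human embryonic kidney cell line that carries the SV40 large T antigen. According to the study's methods, each line was made by lentiviral infection with its EZH2 construct and blasticidin selection of a monoclonal population, so the WT line also carries an introduced EZH2. With 1 such line per construct, the mutation and the clone cannot be told apart, and p-values measure the spread between the replicates of a line. Of 14438 genes in the table, 14263 were tested. The other 175 were at 0 in all 3 replicates of A677G or of the LOF line, and 0 genes were at 0 in all replicates of WT or Y641F.

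EZH2 is the catalytic subunit of Polycomb repressive complex 2 (PRC2), which methylates lysine 27 of histone H3. The trimethylated mark, H3K27me3, is found at the promoters of silenced developmental genes, many of which lie in CpG islands. Residue Y641 lies in the catalytic SET domain, and its substitutions, known from germinal centre B-cell lymphomas, raise trimethylation when WT EZH2 is also present to place the first methyl groups. The residues were located in the 746-codon EZH2 transcript of GENCODE (ENST00000460911.5, GRCh38, minus strand of chromosome 7), where Y641 falls in exon 16 of 20 and A677 in exon 18. The reference sequence is shown for the 2 GOF residues, within the exon and 5′ to 3′ on the coding strand, with the mutated codon in capitals. The first spans chr7:148811625-148811657, with the codon at 148811634 to 148811636, and the second chr7:148809353-148809390, with the codon at 148809374 to 148809376. The mutant codons themselves were in the introduced construct and are not shown.
EZH2 Y641 codon: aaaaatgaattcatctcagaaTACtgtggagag
EZH2 A677 codon: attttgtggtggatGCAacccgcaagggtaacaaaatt

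The counts of the 6 libraries summed to between 32765377 and 41628613. Levels are given as CPM, each library's counts scaled by its TMM factor to a common total. In a principal component analysis of these 6 libraries, PC1 held 43.1% of the variance and separated the lines, with scores of -16.5, -15.6 and -15.3 in WT and 7.93, 20.3 and 19.2 in Y641F replicates 1, 2 and 3. Y641F replicate 1 stood apart from the other two on PC2, at -21.9 against 10.6 and 3.78. Among 10 markers of HEK293T, 9 were tested and their summed level was 832 to 848 CPM in WT and at most 742 CPM in Y641F, where NEFL, NEFM and VIM were lower by the test given below. Of 10 leukocyte markers 1 was tested, with at most 1.22 CPM in these libraries, and of 10 markers of epithelial carcinoma lines 2 were tested. The summed level of these epithelial markers was 2.43 to 3.14 CPM in WT. It was 4.59, 2.21 and 3.07 CPM in Y641F replicates 1, 2 and 3. Of 10 fibroblast markers 5 were tested, with a summed level of 14.3 to 15.7 CPM in WT, 17.7 and 18.6 CPM in Y641F replicates 2 and 3 and 27.4 CPM in Y641F replicate 1. Within these sums, the marker COL3A1 held 3.49, 2.69 and 4.37 CPM in WT and 11.6, 7.49 and 7.42 CPM in Y641F. The log2 fold changes of the 5 markers ran from -0.81 to 1.34 with a median of 0.00, and 2 were below 0.

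EZH2 itself was higher in Y641F. Its expression was 157, 163 and 154 CPM in WT and 228, 209 and 217 CPM in Y641F, and every Y641F replicate lay above every WT replicate. The difference was 1.38-fold (log2 fold change 0.46, standard error 0.0399, adjusted p = 1.57e-10). Here and below, p-values come from the quasi-likelihood test of edgeR and were adjusted over the whole table by the method of Benjamini and Hochberg. Endogenous and introduced transcripts are counted together, and the Y641F codon cannot be read from these counts. In A677G EZH2 had 174, 165 and 182 CPM, and in the LOF line 208, 210 and 206 CPM. EZH2 was 0.33 higher on the log2 scale in Y641F than in A677G (adjusted p = 9.34e-06 from the same edgeR test), whereas the difference from the LOF line was 0.07 with a standard error of 0.0395 and did not pass the threshold (adjusted p = 0.357).

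Of 6 core subunits tested, EZH2 was higher and RBBP7, a histone-binding subunit, was lower. Over all genes tested 2.09% were higher and 5.59% lower. RBBP7 had 409, 408 and 401 CPM in WT and 381, 375 and 377 CPM in Y641F. The groups did not overlap, but the log2 fold change was -0.10 (adjusted p = 0.0484 from edgeR) and was not past the threshold with edgeR's exact test, library totals in place of TMM, the compared groups alone, the replicate block, thinned counts or 5 of the 6 fits without a library. The scaffold subunit SUZ12 (0.07), the H3K27me3-binding subunit EED (0.06), the paralogous methyltransferase EZH1 (0.12) and RBBP4 (0.00, and above 0 with library totals) were not past the threshold. Among 8 accessory subunits tested, 1 was lower. This was C17orf96, now named EPOP, which links PRC2 to elongin. It had 37.6, 36.6 and 38.7 CPM in WT and 29.0, 25.3 and 27.2 CPM in Y641F, with a log2 fold change of -0.47 (standard error 0.0633, adjusted p = 1.77e-06 from edgeR). Of 22 subunits of PRC1, the complex that ubiquitinates histone H2A, PCGF5 and CBX6 were lower, against 5.59% of all genes tested. PCGF5 had 61.1, 64.8 and 62.6 CPM in WT and 45.6, 47.0 and 51.5 CPM in Y641F, a log2 fold change of -0.39, while that of CBX6, a chromodomain protein, was -0.17. None of 13 enzymes opposing H3K27 methylation passed the threshold in either direction, and their log2 fold changes ran from -0.04 to 0.07.

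Across all genes, 797 were lower and 298 higher in Y641F than in WT at an adjusted p-value under 0.05, which is 5.59% and 2.09% of the genes tested. Lower genes thus made up 72.8% of the changed genes. At unadjusted p-values under 0.05 the counts were 1621 and 1119. The split moved with the scaling of the libraries. When a least-squares trend on GC content was removed and each library was set to the mean of its log2 CPM, both together, the median log2 fold change of all genes moved from 0.00 to 0.04, 806 genes were higher, and 46.1% of the changed genes were lower. Removing the GC trend by a robust fit with recentring gave 810 lower and 301 higher genes, and upper-quartile factors gave 80.3% lower. Of the 797 lower genes, 686 stayed lower in the least-squares version, and all 298 higher genes stayed higher. The count of higher genes also rested on 2 of the WT libraries, falling to 157 without WT replicate 1 and to 135 without WT replicate 2.

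The lower genes changed more than the higher genes. Their median log2 fold change was -0.58, against 0.21 in the higher genes. A change of at least 1 on the log2 scale was found at 167 lower and 9 higher genes. Among the higher genes 90.3% changed by less than 0.5, as did 43.3% of the lower genes. In the plot of fold change against level, the lower genes extend to -2.90 (FAM163A) and the higher genes to 2.01 (PKP3), both at low counts. Every Y641F replicate lay below every WT replicate at 11.7% of all genes tested and above at 9.28%, and this held for 770 of the 797 lower and 272 of the 298 higher genes.

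**Figure D1:**
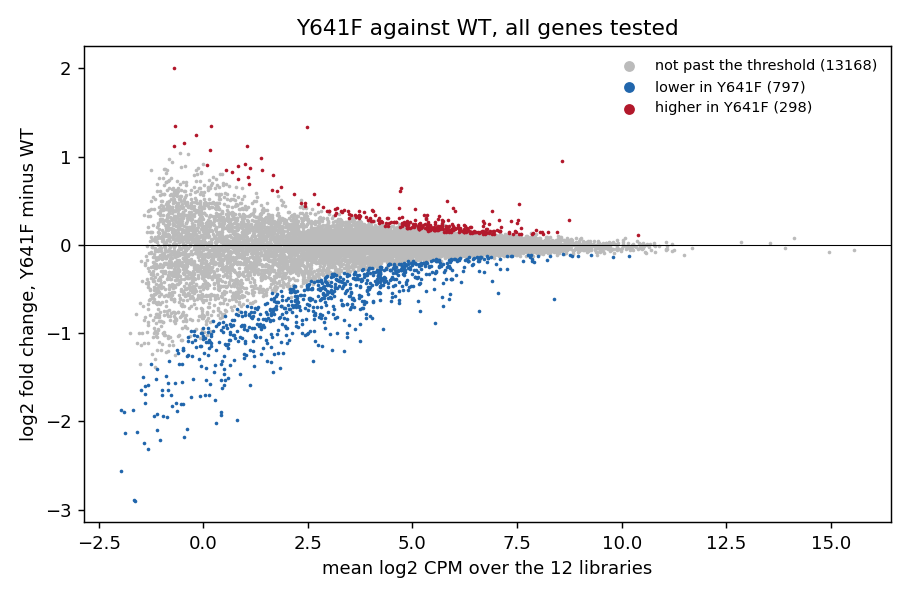
Each point is 1 of the 14263 genes tested, with its mean log2 CPM over the 12 libraries on the horizontal axis and its log2 fold change, Y641F minus WT, on the vertical axis. The 797 lower genes (blue) reach further from 0 than the 298 higher genes (red), and grey genes are not past the threshold.

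The lower genes were less abundant. Their median of the mean log2 CPM was 3.00, against 5.51 for the higher genes and 4.61 for all genes tested. Between 0 and 2 on this scale 9.87% of genes were lower and 0.911% higher, whereas between 6 and 8 lower genes made up 1.73% and higher genes 2.76%. The share that the test can call depends on level, since small changes pass more readily at high counts.

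**Figure D2:**
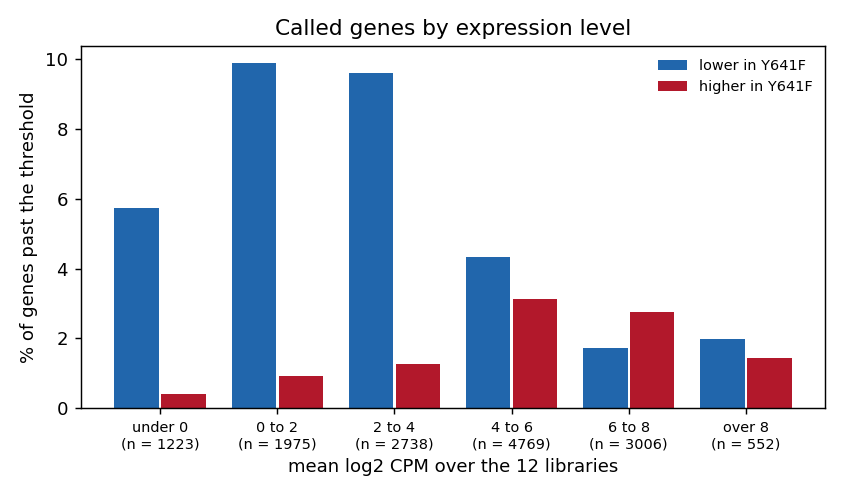
Bars give the percent of genes in each class of mean log2 CPM that were lower (blue) or higher (red) in Y641F, with the number of genes in the class below it. Lower genes peak at 9.87% between 0 and 2, and higher genes at 3.12% between 4 and 6.

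Y641F replicate 1 lay closer to WT than the other two at the lower genes. With this library left out, 943 genes were lower. At those genes its own median difference from WT was -0.32 on the log2 scale, against -0.60 in the other 2 Y641F libraries, and 93.0% of the genes had the same sign. Leaving out Y641F replicate 2 gave 658 lower and 354 higher genes, and leaving out Y641F replicate 3 gave 605 and 209. The part that fibroblast transcripts have in the position of replicate 1 was not tested.

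The 4 genes with the smallest p-values among the lower genes were DPYSL3, KCTD12, NEFL and HLA-B. DPYSL3, which encodes a collapsin response mediator of growing axons, had 65.1, 66.8 and 67.7 CPM in WT and 37.3, 35.6 and 35.6 CPM in Y641F. The Y641F values were close to each other and far below WT, with a log2 fold change of -0.88 (standard error 0.0488, adjusted p = 1.68e-15 from edgeR). KCTD12, an auxiliary subunit of GABA-B receptors, had 416, 421 and 423 CPM in WT and 284, 256 and 281 CPM in Y641F (log2 fold change -0.62, standard error 0.0376). NEFL, the light neurofilament chain, fell from 137, 133 and 128 CPM to 83.8, 75.6 and 77.5 CPM, a log2 fold change of -0.75 (standard error 0.0461). HLA-B, a classical MHC class I heavy chain, had 68.6, 67.5 and 62.6 CPM in WT and 42.3, 40.6 and 39.8 CPM in Y641F (log2 fold change -0.70, standard error 0.0512). HLA-B reads can be shared with its paralogs, so its level is less certain than that of the other three. At all 4 genes the lines did not overlap.

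The same 4 genes were lower than WT in A677G, where 6.48% of all genes tested were lower and 2.07% higher. Their A677G values were 34.9 to 37.5 CPM for DPYSL3, 262 to 278 CPM for KCTD12, 68.6 to 76.1 CPM for NEFL and 42.1 to 46.0 CPM for HLA-B. Of the 4 genes, 2 were also lower than WT in the LOF line, where 0.161% of all genes tested were lower and 0.14% higher. DPYSL3 had 54.4, 55.8 and 55.6 CPM there, below WT by 0.27 on the log2 scale (adjusted p = 0.00304 from edgeR), and NEFL had 118, 110 and 119 CPM, below WT by 0.21 (adjusted p = 0.0280). KCTD12 at 388 to 397 CPM and HLA-B at 63.4 to 69.1 CPM were not past the threshold against WT, with adjusted p = 0.402 and 0.994. Set against the LOF line directly, Y641F was lower at each of the 4 genes, with log2 fold changes of -0.61 at DPYSL3, -0.52 at KCTD12, -0.55 at NEFL and -0.70 at HLA-B.

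Among the higher genes the smallest p-values were those of EZH2, PCDH10, EMILIN2 and PCDH17. The delta protocadherins PCDH10 and PCDH17 are homophilic adhesion molecules of the nervous system. PCDH10 had 47.7, 49.1 and 48.1 CPM in WT and 70.7, 65.1 and 69.0 CPM in Y641F (log2 fold change 0.50, standard error 0.0469, adjusted p = 1.10e-09 from edgeR). PCDH17 had 20.4, 21.4 and 22.3 CPM in WT and 33.8, 30.7 and 32.8 CPM in Y641F (log2 fold change 0.61, standard error 0.0703). Both were also higher in A677G than in WT, by 0.50 and 0.51, whereas LOF values of 43.8 to 46.7 CPM for PCDH10 and 20.4 to 24.7 CPM for PCDH17 were not past the threshold against WT. EMILIN2, a matrix glycoprotein of elastic fibres, had 21.3, 25.7 and 23.8 CPM in WT and 40.0, 35.8 and 35.0 CPM in Y641F (log2 fold change 0.65, standard error 0.0742). Unlike the protocadherins, EMILIN2 was at 22.8 to 27.9 CPM in A677G, and Y641F exceeded A677G by 0.56 on the log2 scale (adjusted p = 2.95e-05 from edgeR).

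**Figure D3:**
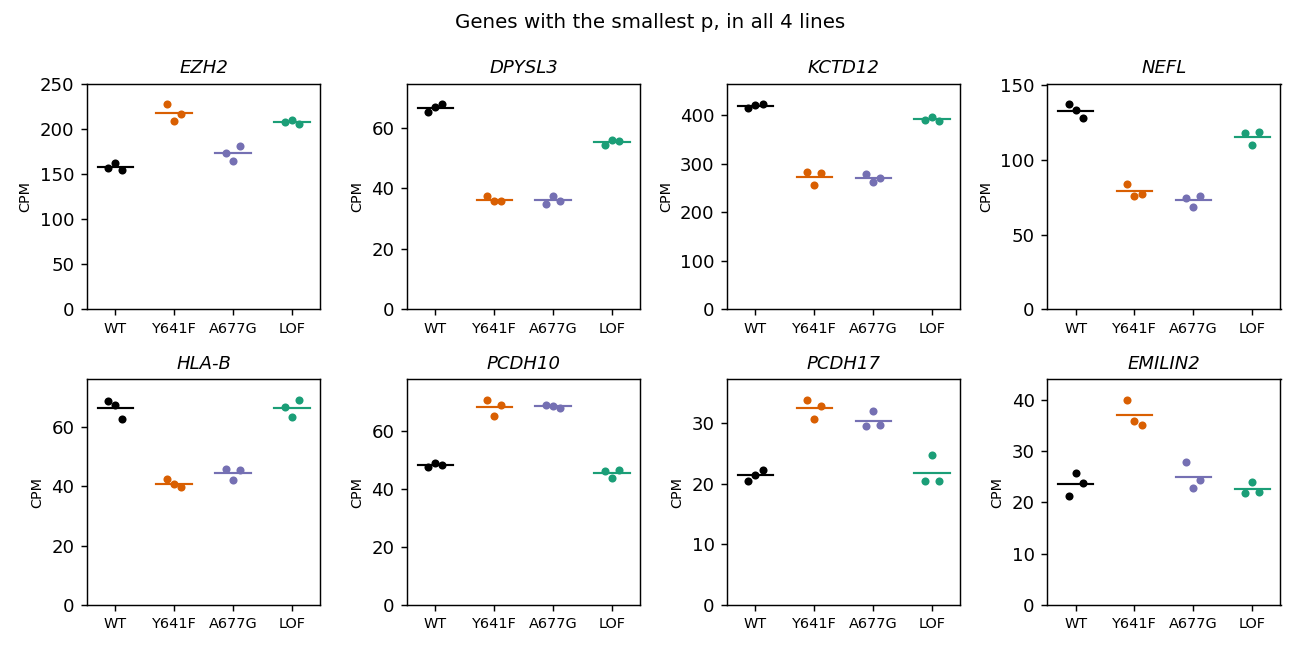
Points are the CPM of 8 genes in the 3 replicates of each line, with a bar at the mean, on axes that start at 0. DPYSL3, KCTD12, NEFL and HLA-B were lower in Y641F than in WT, EZH2, PCDH10, PCDH17 and EMILIN2 were higher, and EMILIN2 was raised in Y641F but not past the threshold in A677G.

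The 12 largest falls, among called genes averaging 1 or more in log2 CPM whose lines did not overlap, were at STAC, SYT14, AMPH, DCDC2, DSEL, TENM4, ADCYAP1R1, TOX3, GBX1, IL18R1, PPP1R1A and SPOCK3. STAC (ENSG00000144681.11, chromosome 3), an adaptor of voltage-gated calcium channels, had 4.41, 3.57 and 3.20 CPM in WT and 1.52, 1.42 and 0.780 CPM in Y641F, 3.01-fold lower. SYT14 (ENSG00000143469.21, chromosome 1), a synaptotagmin, had 5.09, 4.06 and 5.67 CPM in WT and 2.12, 1.58 and 1.75 CPM in Y641F, 2.71-fold lower. AMPH (ENSG00000078053.17, chromosome 7) encodes amphiphysin, which acts in synaptic vesicle endocytosis, and fell 2.64-fold, from 5.47, 5.23 and 6.31 CPM to 2.33, 1.73 and 2.34 CPM. ADCYAP1R1, the receptor of the neuropeptide PACAP, had 8.23, 9.47 and 10.7 CPM in WT and 3.35, 4.28 and 3.78 CPM in Y641F. TENM4, a teneurin, had 4.65, 4.97 and 5.25 CPM in WT and 2.81, 1.31 and 1.80 CPM in Y641F. Log2 fold changes of the 12 genes ran from -1.59 to -1.22, and all 12 were past the threshold under each of the 17 alternatives tried for named genes. Set against the LOF line directly, all but DSEL (-0.50, adjusted p = 0.0891 from edgeR) and TOX3 (-0.54, adjusted p = 0.113) were also lower in Y641F. DSEL was itself lower in the LOF line than in WT, by 0.82 (adjusted p = 0.0164).

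The 12 largest rises by the same rule were at COL3A1, APOBEC3B, RNA28S5, SLC2A3, ZNF506, ZNF429, ZNF492, SNORA33, ZNF808, ZNF793, EMILIN2 and ZNF83. COL3A1, the type III collagen chain, had 3.49, 2.69 and 4.37 CPM in WT and 11.6, 7.49 and 7.42 CPM in Y641F, a log2 fold change of 1.34 (standard error 0.162). Its highest value was in Y641F replicate 1, the library with the highest summed fibroblast markers. COL3A1 is itself one of those markers, and it stayed past the threshold without that library. APOBEC3B, a cytidine deaminase, had 0.974, 1.19 and 1.36 CPM in WT and 2.97, 2.28 and 2.36 CPM in Y641F, a log2 fold change of 1.12. It was also higher than WT in A677G, by 0.80 (adjusted p = 0.0164 from edgeR), and in the LOF line, by 1.26. The ribosomal RNA gene RNA28S5 had 283, 342 and 270 CPM in WT and 444, 761 and 523 CPM in Y641F. These libraries were made by poly(A) selection, so ribosomal RNA counts also move with how well it was removed, and their part in other results was not tested. Of the 12 genes, 6 encode zinc finger proteins, all on chromosome 19. The calls of SLC2A3, SNORA33, ZNF506, ZNF492, ZNF808 and ZNF83 were lost without at least 1 single library. Set against the LOF line directly, COL3A1 (0.86), RNA28S5 (0.55), ZNF808 (0.73) and EMILIN2 (0.70) were past the threshold. The remaining rises were not, among them SLC2A3 (0.14), ZNF506 (0.18), ZNF492 (0.13), APOBEC3B (-0.14) and SNORA33 (-0.12).

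**Figure D4:**
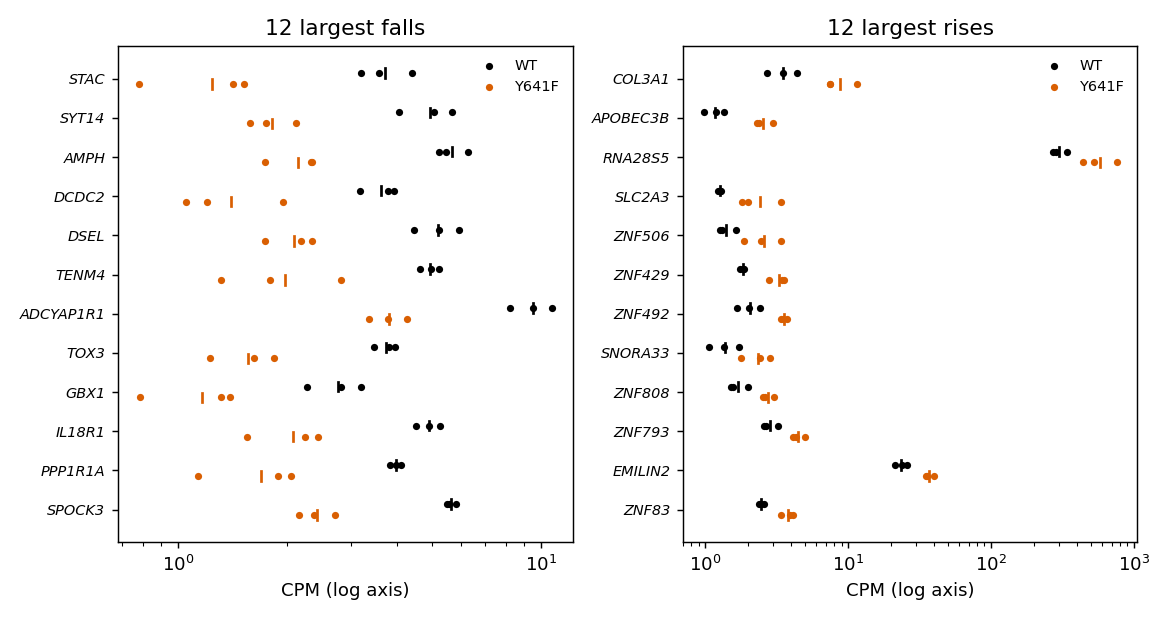
Points are the CPM, on a log axis, of the 3 WT (black) and 3 Y641F (orange) replicates at the 12 largest falls (left) and rises (right), with a tick at each mean. No gene shown has overlapping lines, because the rule that chose them required it.

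CpG content was counted in the promoter windows of the leading genes and of all changed genes. RefSeq windows on GRCh38.p14, from 250 bases before to 50 after the start, were at hand for 10 of the 12 falls and 6 of the 12 rises. The median number of CG dinucleotides in them was 32 and 19, respectively. The 6 rises with a window were EMILIN2 and the zinc finger genes ZNF429, ZNF492, ZNF808, ZNF793 and ZNF83. Their median thus mostly describes zinc finger genes of chromosome 19, and ZNF808, whose window is not shown, held 29. Over all changed genes the order was the other way. Over the changed genes with a window, matched by the symbol in the table, the medians were 27 for 594 lower genes and 29 for 220 higher genes, against 26 for 9621 genes not past the threshold and 14 for all 35116 windows. The motif CG reads the same on both strands and was present in 96.0% of all windows. The first 2 of each set are shown, 5′ to 3′, with every CG in capitals. They lie at chr3:36380254-36380553 (STAC, plus strand), chr1:209937967-209938266 (SYT14, plus strand), chr19:21505352-21505651 (ZNF429, plus strand) and chr19:22634074-22634373 (ZNF492, plus strand), and hold 34, 44, 9 and 16 CG, respectively.
STAC promoter: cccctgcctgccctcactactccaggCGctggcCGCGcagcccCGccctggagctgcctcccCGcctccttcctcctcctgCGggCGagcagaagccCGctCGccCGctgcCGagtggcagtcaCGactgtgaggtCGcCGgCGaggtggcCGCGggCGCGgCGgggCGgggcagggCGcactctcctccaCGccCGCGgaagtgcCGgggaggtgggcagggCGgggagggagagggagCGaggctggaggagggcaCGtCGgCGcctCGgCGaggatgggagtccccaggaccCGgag
SYT14 promoter: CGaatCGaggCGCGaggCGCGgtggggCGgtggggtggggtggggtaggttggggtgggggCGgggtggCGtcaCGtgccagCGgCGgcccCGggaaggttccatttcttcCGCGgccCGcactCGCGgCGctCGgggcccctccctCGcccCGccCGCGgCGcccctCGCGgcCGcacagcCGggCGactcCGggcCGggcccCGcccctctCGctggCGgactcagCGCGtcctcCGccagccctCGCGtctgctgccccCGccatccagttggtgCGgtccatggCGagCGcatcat
ZNF429 promoter: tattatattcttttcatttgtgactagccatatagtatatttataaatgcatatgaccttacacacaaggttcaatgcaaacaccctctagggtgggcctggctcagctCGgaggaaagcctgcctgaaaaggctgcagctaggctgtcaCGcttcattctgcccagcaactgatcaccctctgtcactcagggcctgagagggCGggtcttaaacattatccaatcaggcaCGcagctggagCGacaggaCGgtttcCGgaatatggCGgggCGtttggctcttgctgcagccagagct
ZNF492 promoter: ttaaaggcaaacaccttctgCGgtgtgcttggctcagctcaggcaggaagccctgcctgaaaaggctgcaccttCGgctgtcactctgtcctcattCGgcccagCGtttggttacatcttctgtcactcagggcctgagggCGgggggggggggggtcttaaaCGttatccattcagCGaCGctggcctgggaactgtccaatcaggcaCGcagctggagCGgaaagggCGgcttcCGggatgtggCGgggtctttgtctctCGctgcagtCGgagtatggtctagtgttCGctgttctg

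Both directions shared some features of gene structure. The median transcript length was 5003 bases for lower and 5162 bases for higher genes, against 3748 bases for genes not past the threshold, and the median genomic span was 78740 and 78703 bases against 30814. The median transcript GC content was 47.0% for lower, 43.1% for higher and 48.0% for the other genes. Windows with a GC content of at least 50% and an observed over expected CpG ratio of at least 0.6 were found for 74.8% of lower, 79.7% of higher and 81.5% of the other genes. Longer transcripts collect more counts at the same molar level, which was not corrected for here.

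Genes of neurons and excitable cells were mostly lower where they passed the test. Of 48 presynaptic and vesicle genes tested, 13 were lower and 0 higher, 27.1% against the 5.59% of all genes, and their median log2 fold change was -0.15. Examples are SYT9, a calcium sensor of exocytosis, with 3.44, 2.64 and 3.11 CPM in WT and 0.713, 0.945 and 0.662 CPM in Y641F, and RIMS4, of the active zone, with 50.8, 50.6 and 50.4 CPM in WT and 40.3, 40.5 and 41.9 CPM in Y641F. Their log2 fold changes were -1.99 and -0.31. Among 52 tested channel genes, voltage-gated and potassium channels with their auxiliary proteins, 12 were lower and 0 higher, with a median of -0.27. KCNK2, a two-pore potassium channel, had 3.84, 3.29 and 2.81 CPM in WT and 1.02, 0.735 and 0.851 CPM in Y641F (log2 fold change -1.92). KCNK2 was also lower than WT in the LOF line, by 0.99 (adjusted p = 0.0443 from edgeR). Of 11 neuronal and muscle intermediate filament genes, NEFL, NEFM and VIM were lower. Log2 fold changes of VIM ran only from -0.14 to -0.11 over the alternatives. Its call was lost with the compared groups alone, without Y641F replicate 3 and without WT replicate 2. Axon guidance genes moved both ways, with 11 of 66 lower, among them SLIT3 (-1.41), EPHA8 (-0.62) and EPHB2 (-0.46), and EPHA7 (0.27) and SEMA3C (0.30) higher. The count of lower axon guidance genes was 6 without Y641F replicate 2, 6 without Y641F replicate 3 and 7 without WT replicate 2.

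Genes of the matrix and of adhesion were changed in both directions. Of 30 collagen genes tested, 7 were lower and COL3A1 was higher, against 5.59% lower and 2.09% higher over all genes tested. The basement membrane chains COL4A1 and COL4A2, which are adjacent on chromosome 13, were both lower. COL4A1 had 39.3, 35.9 and 37.9 CPM in WT and 33.3, 26.5 and 28.0 CPM in Y641F (log2 fold change -0.36), and COL4A2 83.2, 81.1 and 80.6 CPM in WT and 73.6, 64.0 and 61.7 CPM in Y641F (-0.30). In both, Y641F replicate 1 had the value nearest to WT. Of 46 laminins and other matrix glycoproteins, 11 were lower and 6 higher. NID2, a nidogen of basement membranes, had 35.5, 35.4 and 36.0 CPM in WT and 28.7, 23.3 and 22.9 CPM in Y641F (-0.51), and fibronectin, FN1, 49.3, 47.1 and 49.3 CPM in WT and 45.5, 33.5 and 36.8 CPM in Y641F (-0.33). The heparan sulfate proteoglycan AGRN (0.25), the glypican GPC3 (0.24) and EMILIN2 were among the higher genes. Without Y641F replicate 1, 16 matrix glycoprotein genes were lower and 4 higher, and 4 were higher without WT replicate 1. Of 18 FAT, dachsous, CELSR and classical cadherin genes, FAT3 (-0.75), CDH7 (-0.94) and DCHS1 (-0.64) were lower, and FAT4 (0.42) and CDH2, N-cadherin (0.15), were higher. The call of CDH2 was lost in 4 fits without a library and that of CDH7 in 1. Of 19 integrin chains tested, 3 were lower and 0 higher, against 5.59% and 2.09% of all genes, and 5 were lower without Y641F replicate 1 and 2 without Y641F replicate 2.

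**Figure D5:**
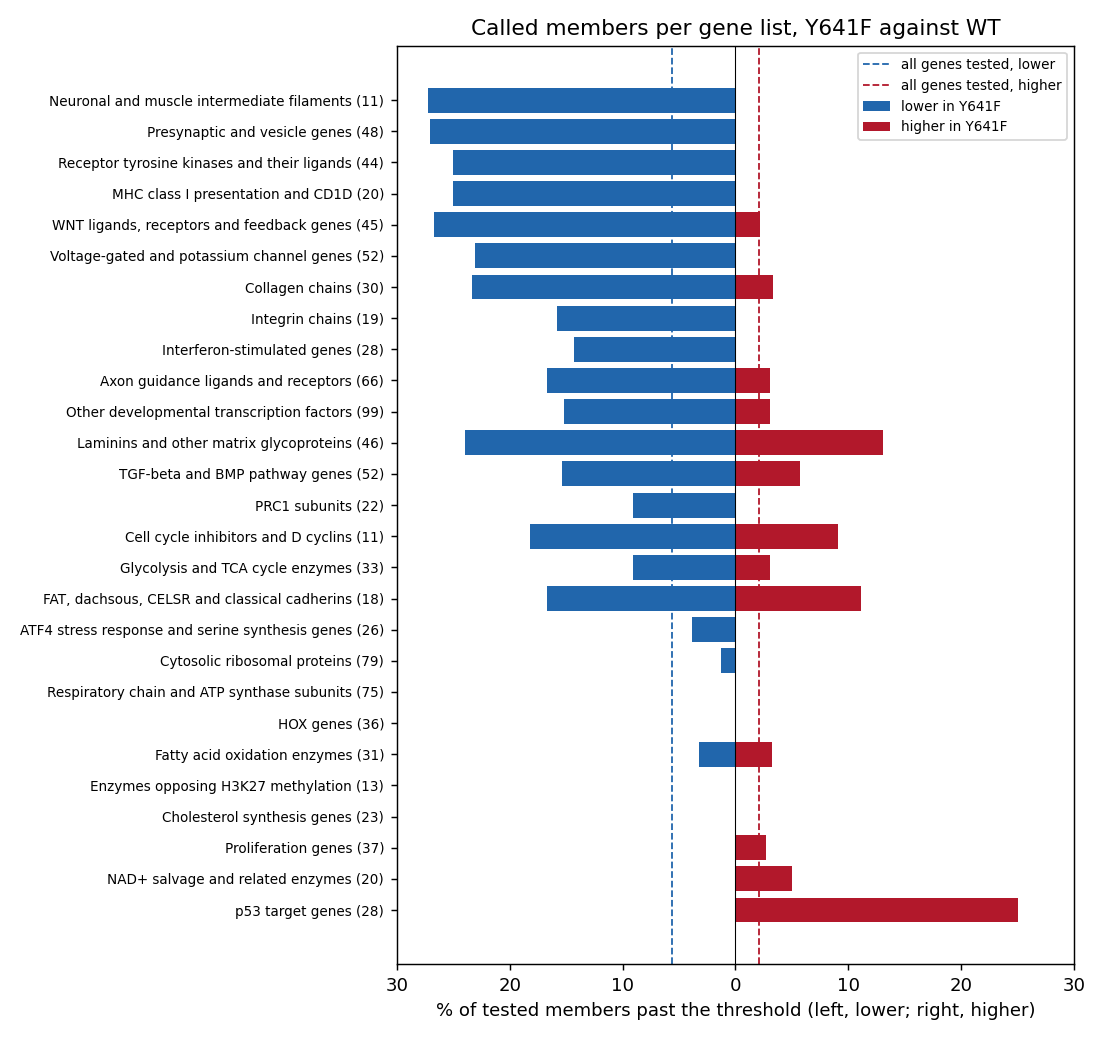
Bars give the percent of tested members of each list that were lower (blue, to the left) or higher (red, to the right) in Y641F, with the number tested in brackets, for lists with at least 10 tested genes, leaving out cell type markers and the list the study paired with proteins. Dashed lines mark 5.59% lower and 2.09% higher, the shares over all genes tested. The presynaptic list reaches 27.1% to the left, and the p53 target genes, 7 of 28, extend furthest to the right among the lists drawn.

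Signalling ligands and receptors were mostly lower where they passed the test. Over all genes tested 5.59% were lower and 2.09% higher, and 9.87% were lower between 0 and 2 in mean log2 CPM. Of 45 WNT pathway genes tested, 12 were lower and LRP6, a coreceptor, was higher by 0.14, a call made in 1 of the 6 fits without a library and not with upper-quartile factors or the GC trend removed. LGR5, the R-spondin receptor, had 9.25, 9.40 and 9.56 CPM in WT and 5.18, 3.62 and 3.97 CPM in Y641F (log2 fold change -1.14, standard error 0.128). The lower members included secreted antagonists of WNT, SFRP1 (-0.72), SFRP2 (-1.01), DKK1 (-1.11) and WIF1 (-2.31), as well as the ligand WNT11 (-0.63) and the receptor FZD10 (-0.87). The lower count was 8 without WT replicate 1 and 8 without WT replicate 2. Of 44 receptor tyrosine kinase and ligand genes, 11 were lower and 0 higher. PDGFD, a platelet-derived growth factor, had 2.30, 2.69 and 3.02 CPM in WT and 0.808, 0.840 and 0.331 CPM in Y641F (-2.02), and FLT1, a VEGF receptor, was at 16.3 CPM or above in WT and lower in every Y641F replicate (-0.65). The lower count was 7 without WT replicate 3. In the TGF-beta and BMP pathway, 8 of 52 genes were lower and 3 higher, with a median of 0.00. The BMP antagonist CHRDL1 had 5.14, 6.68 and 5.31 CPM in WT and 2.95, 2.36 and 2.03 CPM in Y641F (-1.22), whereas ID4, an inhibitor of helix-loop-helix factors, had 121, 124 and 122 CPM in WT and 152, 151 and 142 CPM in Y641F (0.28). The lower count was 5 without Y641F replicate 3, 4 without WT replicate 1 and 4 without WT replicate 2.

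Of 36 HOX genes tested, 0 passed the threshold in either direction, with a median log2 fold change of -0.03 and a range from -0.54 to 0.20. In 3 of them every Y641F replicate lay below every WT replicate, and in 1 above, against 11.7% and 9.28% of all genes. Of 99 other developmental transcription factors 15 were lower (15.2%) and 3 higher (3.03%), against 5.59% and 2.09% of all genes tested. PRRX1, a mesenchymal homeodomain factor, had 2.90, 1.94 and 2.11 CPM in WT and 1.31, 0.893 and 0.946 CPM in Y641F (log2 fold change -1.14), and TWIST2 (-0.60) and MEIS3 (-0.50) were also lower. SOX4 (0.17) and EBF3 (0.24) were among the higher factors. The count of lower factors depended on single libraries, with 8 and 5 lower without Y641F replicates 2 and 3 and 4, 7 and 10 without WT replicates 1, 2 and 3.

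Genes of antigen presentation and interferon response were lower where they passed the test. Of 20 MHC class I presentation genes, CD1D included, 5 were lower and 0 higher, against 5.59% and 2.09% of all genes tested. HLA-C had 147, 155 and 141 CPM in WT and 132, 124 and 112 CPM in Y641F (log2 fold change -0.27), and the peptide transporter subunit TAP1 14.4, 16.3 and 18.2 CPM in WT and 12.2, 10.9 and 9.46 CPM in Y641F (-0.58). The count was 9 without Y641F replicate 1. Of 28 interferon-stimulated genes 4 were lower, which were OAS3 (-1.46), IFIH1 (-1.80), SAMD9 (-1.34) and HERC5 (-0.25), but the median of the list was 0.02. HERC5 was not past the threshold without Y641F replicate 2 or WT replicate 2.

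Among 28 p53 target genes tested, 7 were higher and 0 lower, against 2.09% and 5.59% of all genes, with a median log2 fold change of 0.12. The large T antigen of HEK293T binds and inactivates p53. DDB2, a DNA damage sensor, had 13.3, 13.8 and 13.9 CPM in WT and 18.0, 16.4 and 18.9 CPM in Y641F (log2 fold change 0.38, standard error 0.0801, adjusted p = 0.00136 from edgeR). CDKN1A, the cyclin-dependent kinase inhibitor p21, had 24.9, 21.9 and 19.1 CPM in WT and 23.2, 30.6 and 28.3 CPM in Y641F (0.31), and Y641F replicate 1 overlapped WT. The proapoptotic genes BBC3 (0.40) and BAX (0.16) and RRM2B (0.21), a ribonucleotide reductase subunit, were also higher, as were TP53INP1 (0.33) and XPC (0.15). The number of higher members was 12 without Y641F replicate 1, 3 and 4 without Y641F replicates 2 and 3, and 2, 2 and 3 without WT replicates 1, 2 and 3. Of 11 cell cycle inhibitors and D cyclins, RPRM and CCND2 were lower and CDKN1A was higher. The call of CCND2 was lost in 2 and that of CDKN1A in 4 of the fits without a library. Of 37 proliferation genes tested, CENPE was past the threshold, at 0.12, and 1 of 37 is near the 2.09% of all genes. Its call was lost under 12 of 17 alternatives, and the log2 fold changes ran from -0.12 to 0.12.

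Respiratory chain, cholesterol synthesis and ribosomal protein genes differed little. Among small sets, 42.9% of 7 carbonic anhydrases and 28.6% of 7 complement genes were lower, against 5.59% of all genes. None of 75 respiratory chain and ATP synthase genes passed the threshold, and their log2 fold changes ran from -0.12 to 0.10. Of 23 cholesterol synthesis genes 0 passed in either direction, of 79 cytosolic ribosomal protein genes RPS15 was lower by 0.11, a call lost under 8 of 17 alternatives, and of 26 ATF4 stress response and serine synthesis genes SLC7A5 was lower by 0.19. Of 33 glycolysis and TCA cycle genes, PFKP (-0.19), FH (-0.16) and GPI (-0.11) were lower and IDH2, mitochondrial isocitrate dehydrogenase, was higher. The lower count of this list was 5 without Y641F replicate 1, 1 without Y641F replicate 3, 1 without WT replicate 1 and 2 without WT replicate 2, and GPI lost its call under 5 of 17 alternatives. IDH2 had 47.2, 47.0 and 44.8 CPM in WT and 60.4, 56.0 and 53.2 CPM in Y641F (log2 fold change 0.29). Of 31 fatty acid oxidation genes ACADL was lower and EHHADH (0.29) higher. Of 20 genes of NAD+ metabolism QPRT was higher by 0.31. The QPRT call was not made with DESeq2 or without Y641F replicate 1 or WT replicate 2. These single genes are 3.23% of the fatty acid list in each direction and 5% of the NAD+ list, near the 5.59% lower and 2.09% higher of all genes. Of the glycolysis and TCA cycle genes 9.09% were lower and 3.03% higher. Of 7 carbonic anhydrases, CA2 (-0.19), CA8 (-0.29) and CA12 (-0.32) were lower, and 0 were without WT replicate 1 and 0 without WT replicate 2. Of 7 complement receptor and regulator genes CD55 and CR2 were lower. Their list held 0 lower genes without Y641F replicate 3, 1 without each WT replicate and 3 without Y641F replicate 1.

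Smaller sets were as follows, beside 5.59% lower and 2.09% higher over all genes tested. Of 8 teneurin, FLRT and latrophilin genes 2 were lower and 1 higher, ADGRL3 at 0.18, whose call was lost under 9 of 17 alternatives. None of 3 clustered protocadherin genes passed the threshold. Of 8 long noncoding RNAs linked to PRC2, MALAT1 (0.19) and NEAT1 (0.34) were higher. MALAT1 was not past the threshold without Y641F replicate 3, nor NEAT1 without Y641F replicate 1 or without WT replicate 1. A list of 17 genes that the study paired with proteins for Y641F held 5 lower and 12 higher genes, but these were chosen from these samples, so their direction is no independent evidence. The higher count was 6 without Y641F replicate 3, 6 without WT replicate 1 and 6 without WT replicate 2, and the lower count 3 without Y641F replicate 2 and 3 without WT replicate 1.

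The share of lower genes ran from 1.54% of 130 genes on chromosome 21 to 50 of 500 genes on chromosome X, and 9.62% of 613 genes on chromosome 5 were lower. Of 793 lower genes with a next neighbour among the genes tested, 95 had a neighbour that was also lower, against 5.59% of all genes. There were 9 runs of 3 adjacent lower genes. They included IL1R1, IL18R1 and SLC9A2 on chromosome 2 (log2 fold changes from -1.24 to -1.03), DPP4, IFIH1 and GCA on the same chromosome (-1.80 to -0.41), TLL1, SPOCK3 and DDX60 on chromosome 4 (-1.22 to -1.01), and IRS2, COL4A1 and COL4A2 on chromosome 13 (-0.43 to -0.30). Among 214 zinc finger genes with ZNF or ZFP symbols on chromosome 19, 12 were higher (5.61%) and 1 lower, whereas of 260 elsewhere 4 were higher and 5 lower. ZNF429 had 1.87, 1.76 and 1.84 CPM in WT and 3.57, 2.81 and 3.43 CPM in Y641F (log2 fold change 0.84). These genes have similar sequences and share reads to an unknown extent, and their higher count was 12 with the GC trend removed, 8 without Y641F replicate 3, 7 without WT replicate 1 and 5 without WT replicate 2.

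Y641F and A677G were close to each other when compared directly. At an adjusted p-value under 0.05, 12 of the 14263 genes differed (0.0841%), 2 lower and 10 higher in Y641F, while at unadjusted p-values under 0.05 the counts were 458 and 527. The number was 57 without Y641F replicate 2 and 21 without Y641F replicate 3, and 178 when the genes at 0 in a line were kept. Against the LOF line, Y641F had 917 genes lower (6.43%) and 355 higher (2.49%). Of the 797 genes lower than in WT, 602 (75.5%) were also lower than in the LOF line. Of the 298 genes higher than in WT, 118 (39.6%) were also higher than in the LOF line. EZH2 transcript levels in Y641F and the LOF line did not differ past the threshold, and the part of EZH2 level in these counts was not tested. The comparisons share the Y641F libraries, so their counts are not independent.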

How the data were processed

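RNA-Seq libraries of poly(A) RNA (TruSeq Stranded mRNA) were analysed from 4 HEK293T lines with 3 replicates each. According to the study's methods and the submitters' processing notes, reads were trimmed with Trim Galore 0.6.5, aligned to GRCh38 with STAR 2.7.9a and quantified with Salmon 1.2.0. The table that the authors deposited holds raw counts, whole numbers for each gene symbol, without normalization. The step from Salmon estimates to these counts and the filter on genes are not given in the sources used here. Columns were matched to samples by name, and 0 columns were left unmatched.

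Genes at 0 in all replicates of a line were left out. The quasi-likelihood test of edgeR 4.0.16 (R 4.3.3) was fitted to all 12 libraries after TMM scaling, with 1 coefficient per line. Benjamini-Hochberg adjustment covered 14263 genes, and the threshold was 0.05. The exact test that the study's methods name and DESeq2 1.42.0 served as alternatives. The standard error is the log2 fold change divided by the square root of F. Log2 CPM used a prior count of 2. The procedure was run on simulated counts drawn with the spread that edgeR fitted to these data. Effects of a clone or of a single library were not simulated, so that run does not bear on them. The common biological coefficient of variation was 0.0471.

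Symbols were matched to GENCODE on GRCh38, 13272 by name and 809 through a synonym, and 357 had no match. Named genes are EZH2 and PRC2 subunits, the 12 largest changes in each direction among called genes averaging 1 or more in log2 CPM with no overlap, the 4 smallest p-values in each direction, genes past the threshold between Y641F and A677G, and up to 4 called members of each list with those the list is named for. Other genes named beside them were chosen after their values were seen. Members, lists and tests were chosen with earlier results of these data known. Alternatives were DESeq2, the exact test, other scalings and filters, the compared groups alone, a replicate block, thinned counts, removal of GC trends, a minimum size of change and each library left out in turn.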

Additional observations from a re-analysis of the deposited data

Results flagged for a closer look

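The 12 genes past the threshold between Y641F and A677G, each by the adjusted p of edgeR, are those at which the 2 GOF lines differ from each other. RNA28S5 (0.75) and RNA45S5 (0.65), both ribosomal RNA genes, were higher in Y641F. RNA28S5 had 356, 334 and 337 CPM in A677G, and RNA45S5 had 352, 365 and 338 CPM in A677G against 503, 656 and 494 CPM in Y641F and 448, 522 and 385 CPM in WT. EZH2 differed by 0.33 and EMILIN2 by 0.56, as given above.

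NEFM, the medium neurofilament chain, had 184, 192 and 178 CPM in WT, 143, 107 and 128 CPM in Y641F and 99.2, 81.2 and 92.6 CPM in A677G, so that it was lower than WT in both GOF lines and 0.47 higher in Y641F than in A677G (adjusted p = 4.75e-05). FAT3, an atypical cadherin, had 45.8, 44.9 and 42.6 CPM in WT, 27.8, 25.8 and 25.8 CPM in Y641F and 34.4, 32.4 and 33.7 CPM in A677G, a difference of -0.34 between the GOF lines (adjusted p = 0.00193). NELL2 had 22.9, 21.6 and 21.7 CPM in WT, 20.3, 17.2 and 17.0 CPM in Y641F and 12.5, 13.5 and 14.8 CPM in A677G, a difference of 0.42.

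The other 5 genes were not past the threshold between Y641F and WT. L3MBTL4, at 1.39 to 2.35 CPM in WT and 1.37 to 1.85 CPM in Y641F, was at 0.393 to 0.718 CPM in A677G, a difference of 1.34 (adjusted p = 0.0444). GNG4 (0.44), MIR17HG (0.31), the host gene of a microRNA cluster, and POLR2A (0.29), the largest subunit of RNA polymerase II, were higher in Y641F than in A677G. CYFIP2 was lower by 0.24.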

How the results depend on the processing

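Counts moved by over 1.5 times as follows. Genes higher in Y641F than in WT numbered 179 with the compared groups alone, 806 with libraries set to their mean log2 CPM after a least-squares GC trend (an alternative chosen after seeing the data), and 135 to 354 with each library left out. Lower genes numbered 568 to 943 with each library left out, a smaller move that stayed within 1.5 times of the main count. Genes differing between Y641F and A677G numbered 23 with edgeR's exact test, 178 with genes at 0 kept and 8 to 57 without single libraries, and those between Y641F and the LOF line 821 to 1379 without single libraries. Requiring a change of 1 or more on the log2 scale left 167 lower and 9 higher genes, 1 gene against A677G and 188 against the LOF line. The cause was not tested.

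Libraries sharing a replicate number deviated from their line means with correlations of 0.0254, 0.00163 and 0.0501, so the numbers were not taken to pair the samples. With the replicate block, 809 genes were lower and 299 higher.

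Of 112 named genes past the threshold, 78 were so under every alternative tried for them. The minimum size of change and the least-squares GC version were not part of this count. Changes of sign occurred at PRC2 subunits that were not past the threshold in any of these fits. For MTF2 the values were -0.0132 (upper-quartile factors), -0.00147 (at least 10 counts in every sample), -0.00234 (thinned counts), -0.0257 (GC trend removed) and -0.0255 (GC trend removed with replicate block). RBBP4 had 0.00373 with library totals. Without single libraries MTF2 ran from -0.0227 to 0.0462, RBBP4 from -0.0287 to 0.0307, PHF19 from -0.0110 to 0.0803 and PHF1 from -0.170 to 0.0101.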
